A study of Mus musculus with 34 samples.

Results

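A set of 10 transcripts of blood vessel cells was followed through ribosome-bound mRNA of cortical inhibitory interneurons: Acta2, Myl9, Tagln and Pdgfrb of mural cells, Cldn5, Flt1 and Podxl of endothelial cells, and Col4a1, Col4a2 and Vim, which both kinds of cell make. They were taken by gene symbol, with earlier results of these data known. They are 10 of the 54540 gene symbols that the 5 count tables list between them. In the tables that carry Ensembl identifiers each symbol had 1 row: ENSMUSG00000035783 for Acta2, ENSMUSG00000067818 for Myl9, ENSMUSG00000032085 for Tagln, ENSMUSG00000024620 for Pdgfrb, ENSMUSG00000041378 for Cldn5, ENSMUSG00000029648 for Flt1, ENSMUSG00000025608 for Podxl, ENSMUSG00000031502 for Col4a1, ENSMUSG00000031503 for Col4a2 and ENSMUSG00000026728 for Vim. All 10 had a row in batches 1, 3, 4 and 5, and 8 had one in batch 2, where Tagln and Cldn5 were not analysed.

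The 34 libraries came from C57/BL6 mice at postnatal day 60 and form 11 groups in 5 batches. RiboTag mice carry an HA-tagged ribosomal protein that is made only in cells with Cre recombinase, and tagged ribosomes are pulled down from tissue lysate with beads that bind HA. The Pvalb gene drives Cre in 1 line (PV:Cre/Ribotag, parvalbumin or PV interneurons) and the Sst gene in the other (Sst:Cre/Ribotag, somatostatin or SST interneurons), so vessel cells are not the intended source of the RNA. PV:Cre/Ribotag mice received saline (n = 3) or the convulsant pentylenetetrazol, PTZ (n = 4), in batch 1, saline (n = 2) in batch 2, and stayed in the home cage (n = 3) or went through contextual fear conditioning, CFC (n = 3), in batch 3. Sst:Cre/Ribotag mice received saline (n = 4) or PTZ (n = 3) in batch 2 and stayed in the home cage (n = 3) or went through CFC (n = 3) in batch 4. Mice with floxed Nr4a1, an immediate early gene for a nuclear receptor, were kept in the home cage: PV:Cre/Nr4a1-f/f/Ribotag (n = 3) in batch 3 and Sst:Cre/Nr4a1-f/f/Ribotag (n = 3) in batch 5, here called the libraries labelled Nr4a1 cKO. For the tissue the labels name cortex and hippocampus and the extraction protocol names cortices, and no source says that libraries are from separate animals, so a p-value measures the spread between these libraries, which may be technical.

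Brain capillaries are tubes of endothelial cells sealed by tight junctions, wrapped by pericytes and, on arterioles, by rings of smooth muscle, with a shared basement membrane in between. Smooth muscle is marked by its contractile proteins, above all the alpha actin encoded by Acta2, while pericytes are best known by the growth factor receptor Pdgfrb, which receives a signal from the endothelium. The basement membrane is built on a network of collagen IV, whose commonest chains are encoded by the neighbouring genes Col4a1 and Col4a2. These genes are not typical of interneurons, and the files do not say from which cells their reads came.

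The upstream DNA of the actin and myosin genes of the contractile apparatus is shown because Acta2 and Myl9 moved together across the libraries. They were not alone in this: Vim, Flt1, Podxl, Col4a1 and Col4a2 correlated with the mean of Acta2, Myl9 and Pdgfrb at 0.699 (Col4a2) to 0.908 (Vim). Whether the motif marked below plays a part in their levels was not tested. Both windows are the 250 bases before the annotated start in RefSeq (GRCm38.p6), Acta2 at chr19:34255374-34255623 on the minus strand and Myl9 at chr2:156775214-156775463 on the plus strand, and capitals mark matches to the CArG box, the binding motif of serum response factor, with at most 1 letter off its strict form.
Acta2: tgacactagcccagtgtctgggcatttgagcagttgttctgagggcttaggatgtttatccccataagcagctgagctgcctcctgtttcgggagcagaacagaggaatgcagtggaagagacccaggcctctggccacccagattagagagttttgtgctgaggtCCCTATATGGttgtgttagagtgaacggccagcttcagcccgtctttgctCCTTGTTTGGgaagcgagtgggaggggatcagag
Myl9: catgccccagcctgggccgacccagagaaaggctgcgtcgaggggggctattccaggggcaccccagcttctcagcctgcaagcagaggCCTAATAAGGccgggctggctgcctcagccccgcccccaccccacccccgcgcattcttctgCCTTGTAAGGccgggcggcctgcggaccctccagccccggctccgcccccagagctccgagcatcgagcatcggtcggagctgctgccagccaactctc
The search covered both strands, on which the box reads alike. Acta2 had a match 84 to 75 and another 34 to 25 bases before its start, each 1 letter off. Myl9 had a strict match 161 to 152 bases before its start and a match 1 letter off at 99 to 90 bases. Among the 32851 windows of this length given by RefSeq, 18.6% held a match with at most 1 letter off and 1.47% a strict one. Of the 10 members 7 were searched: Tagln and Podxl had no such window, and Pdgfrb was left out of the search. None of the 5 others searched held either form. Col4a1 and Col4a2 start 21 bases apart on opposite strands of chromosome 8 and run away from each other, with their annotated ends overlapping between the starts, and their windows held 74.4% and 73.6% G and C.

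Read depth was 4933110 to 27282912 counts per library, and values below are CPM, a gene's count per 1000000 counts of its library. The labels were checked first on the targeted gene. Nr4a1 lay at 7.00, 16.8 and 7.90 CPM in the PV libraries labelled Nr4a1 cKO against 5.11, 7.06 and 10.6 CPM in the PV home cage, and at 15.1, 11.3 and 17.5 CPM in the SST libraries labelled Nr4a1 cKO against 23.1, 15.6 and 13.8 CPM in the SST home cage. Gene counts therefore did not show the deletion, and counts over a whole gene do not single out deleted exons. Sst itself was at 1740 to 6020 CPM in the SST libraries and at 28.7 to 421 CPM in the PV libraries. Pvalb did not separate the lines in this way across batches. It was at 15.7 to 21.8 CPM in PV saline of batch 1, below the 87.7 to 471 CPM of the SST home cage and the 218 to 419 CPM of SST CFC. In PV PTZ of batch 1 it was at 44.0 to 133 CPM, below SST CFC and overlapping the SST home cage. In batch 3 it was at 1100, 1380 and 161 CPM in the PV libraries labelled Nr4a1 cKO. The PV home cage and PV CFC libraries of that batch held 144 to 181 CPM. Within batch 2 it was at 230 to 388 CPM in PV saline and 6.1 to 12.5 CPM in SST saline.

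A few libraries stood apart in the vessel transcripts. In the SST group labelled Nr4a1 cKO, replicate 1 held 1120 CPM over all 10 members, against 49.1 and 45.7 CPM in replicates 2 and 3, and it was the highest of the 34 libraries. Each of its members was higher than in both other replicates, by 5.28-fold for Tagln up to 58.2-fold for Acta2. The SST home cage libraries held 129, 601 and 400 CPM over the members, so replicate 1 was the low library of that group. The PV libraries labelled Nr4a1 cKO spread as widely, at 138, 45.3 and 317 CPM. Other groups were tighter, such as the PV home cage at 161, 162 and 173 CPM. Ordered by their median over the members, the groups ran from the SST home cage (400.0 CPM) through the PV home cage (162 CPM), the PV libraries labelled Nr4a1 cKO (138 CPM), PV CFC (124 CPM), PV PTZ (109 CPM), SST CFC (62.1 CPM), SST PTZ (56.3 CPM), the SST libraries labelled Nr4a1 cKO (49.1 CPM), PV saline of batch 1 (39.8 CPM) and SST saline (33.2 CPM) to PV saline of batch 2 (10.5 CPM). Of the 10 steps in this order 8 joined groups whose libraries overlapped, the exceptions being PV PTZ above SST CFC and SST saline above PV saline of batch 2. Batch 2 sums hold 8 members, and order across batches also carries whatever differs between the tables.

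**Figure D1:**
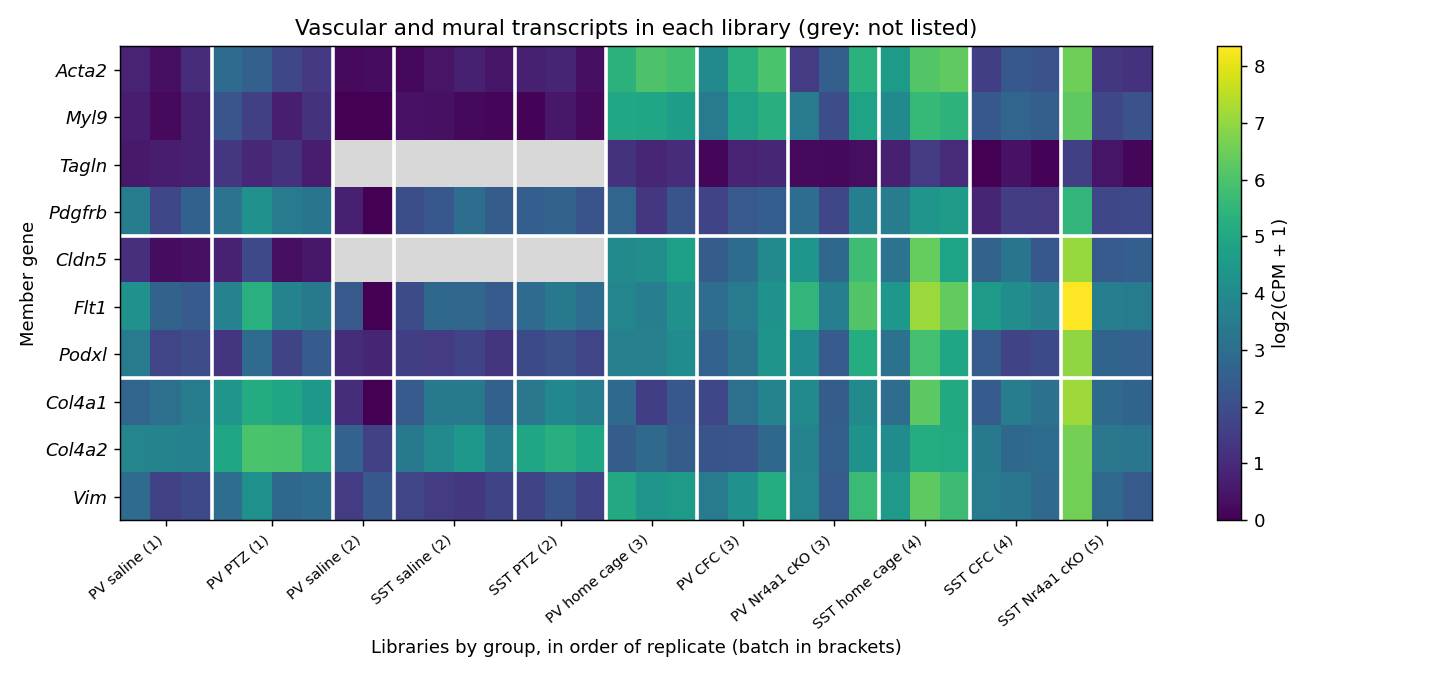
Level of each member, as log2(CPM + 1), in each of the 34 libraries, with libraries grouped along the horizontal axis and mural, endothelial and shared members in 3 blocks of rows. The brightest column is replicate 1 of the SST libraries labelled Nr4a1 cKO, where Flt1 reached 326 CPM, and grey cells mark Tagln and Cldn5 in batch 2.

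Among the 7 comparisons between groups, the vessel transcripts had their largest median difference after fear conditioning of SST mice. Every member had a negative fold change between CFC and the home cage, from -1.90 for Col4a2 to -4.17 for Acta2 on the log2 scale, with a median of -2.76 against 0.00 over all genes tested. Acta2, the actin of smooth muscle, fell past the threshold (an adjusted p of 0.05, edgeR with Benjamini-Hochberg adjustment over all genes), and the 9 other members did not pass it. Over all genes 0.0411% were called in this comparison.

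Among the contractile genes, Acta2 was at 22.4, 69.1 and 79.0 CPM in the 3 home cage libraries and at 1.92, 3.98 and 3.44 CPM in the 3 CFC libraries. The lowest home cage library was thus well above the highest CFC library. The log2 fold change was -4.17 ± 0.50 (SE, adjusted p = 0.0438). Myl9, the regulatory light chain that switches smooth muscle myosin on, was at 14.7, 47.9 and 41.3 CPM in the home cage and at 3.95, 5.65 and 4.78 CPM after CFC. Its groups did not overlap either, at a log2 fold change of -2.83 ± 0.42 (adjusted p = 0.160). Tagln, an actin-binding protein of smooth muscle, was close to the limit of detection, at 0.680, 1.76 and 1.04 CPM in the home cage and at 0, 0.321 and 0.0538 CPM after CFC. In the CFC library without a Tagln read a level of up to 0.174 CPM is allowed by 3 counts, a limit that covers counting error only.

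Pdgfrb, the receptor of pericytes, was at 10.7, 19.5 and 23.6 CPM in the home cage libraries and at 0.813, 1.86 and 1.72 CPM in the CFC libraries. Its groups were far apart, with a log2 fold change of -3.59 ± 0.45, and the adjusted p of 0.0548 missed the threshold. Of the endothelial genes, Podxl, a sialomucin of the luminal surface, was at 7.59, 57.6 and 29.0 CPM in the home cage and at 4.18, 2.31 and 2.69 CPM after CFC. Cldn5, the main claudin of the blood-brain barrier, was at 8.10, 81.3 and 27.8 CPM against 5.34, 8.41 and 3.98 CPM. Flt1, a receptor of vascular endothelial growth factor, was at 20.8, 137 and 80.9 CPM against 22.5, 16.1 and 12.1 CPM. Podxl did not overlap between the groups, whereas for Cldn5 and Flt1 home cage replicate 1 lay within the range of the CFC libraries.

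Col4a1 was at 6.97, 75.2 and 32.8 CPM in the home cage and at 4.35, 10.5 and 7.90 CPM after CFC, again with home cage replicate 1 inside the CFC range. Col4a2 was at 15.6, 34.8 and 33.1 CPM against 9.35, 5.91 and 6.83 CPM. Vim, an intermediate filament of endothelial, mural and some glial cells, was at 21.6, 77.3 and 51.8 CPM against 9.75, 8.67 and 6.34 CPM. Both of these genes kept apart, and in all 7 of 10 members were lower in every CFC library than in any home cage library, against 6.21% of all genes tested. All 4 mural members were among the 7, with Podxl, Col4a2 and Vim. The spread came from the home cage side: its SD was 30.2 CPM around a mean of 56.8 CPM for Acta2 and 57.9 CPM around 79.5 CPM for Flt1, against 1.07 around 3.11 CPM and 5.23 around 16.9 CPM after CFC.

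**Figure D2:**
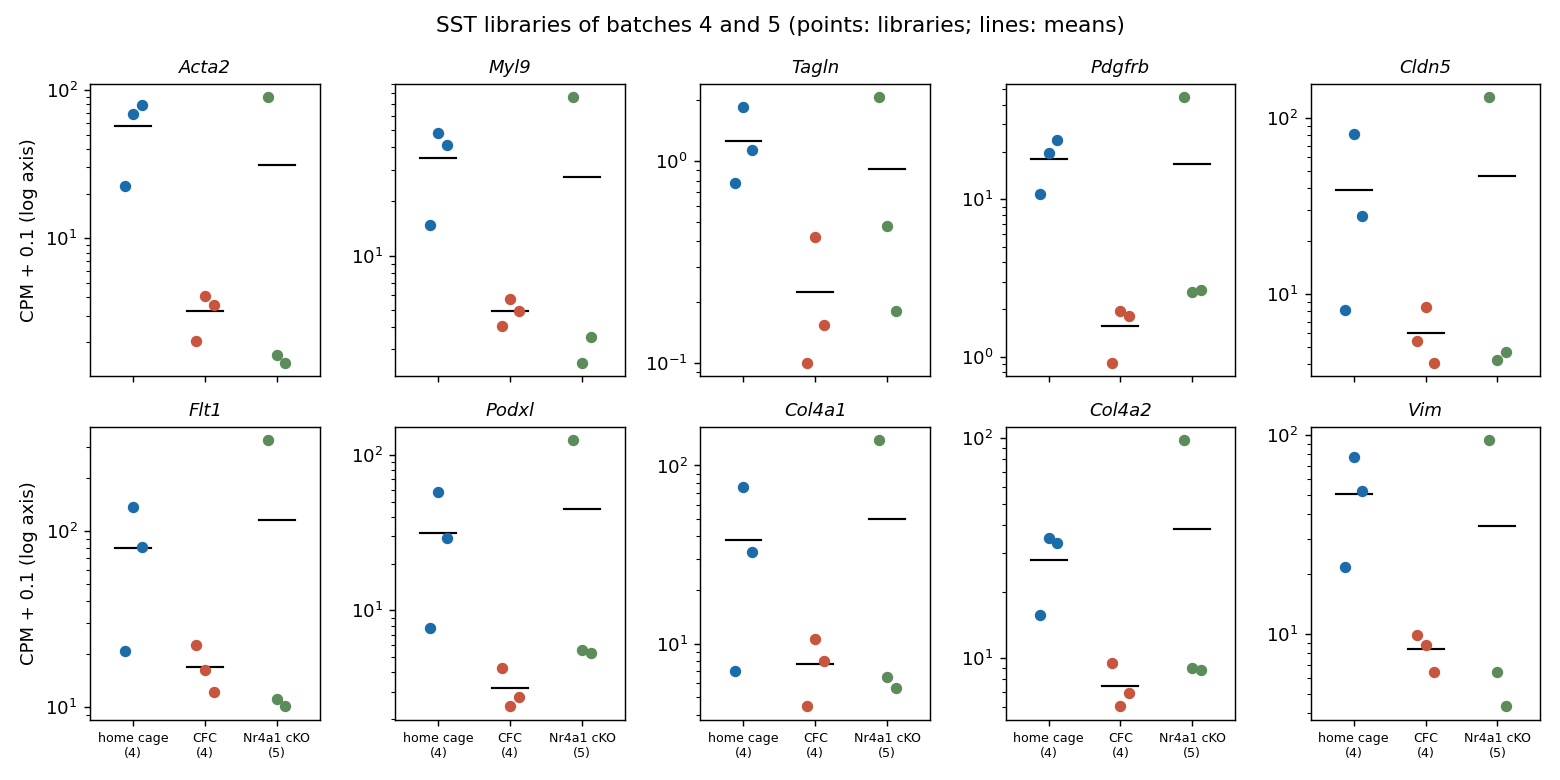
CPM + 0.1 on a log axis for each member in the SST home cage and CFC libraries of batch 4 and the SST libraries labelled Nr4a1 cKO of batch 5, with points for libraries and lines for means (n = 3 per group). Acta2 was between 22.4 and 79.0 CPM in the home cage and between 1.92 and 3.98 CPM after CFC, and in batch 5 replicate 1 was far above the other 2 libraries in each panel.

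The call of Acta2 held with another scaling (RLE), with DESeq2, and also when home cage replicate 1 was left out, at log2 -4.55 with an adjusted p of 0.00168. It did not hold without any of the 5 other libraries, home cage replicate 2 or 3 or CFC replicate 1, 2 or 3, where adjusted p ran from 0.25 to 0.424 at log2 fold changes of -3.85 to -4.38, nor without the filter on low counts (adjusted p = 0.181). Without home cage replicate 1, the low library, 7 members were called among 37 genes in all, 0.243% of those tested. The same pattern of signs ran through the other vessel genes: 19 of 19 further endothelial genes tested were negative (median log2 fold change -2.44), as were 15 of 15 further mural genes (median -1.69) and 10 of 11 basement membrane genes (median -1.17), and none of these was called by edgeR, with 16, 6 and 6 at an unadjusted p under 0.05. Of all 14614 genes 814 were at an unadjusted p under 0.05.

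Markers of other cells moved less. In the same comparison 9 of 9 fibroblast and meningeal genes were negative with a median of -0.69, 9 of 11 microglial genes with -0.63, 11 of 12 astrocyte genes with -0.52 and 11 of 12 oligodendrocyte genes with -0.23. So were 5 of 5 blood genes (median -0.42) and 8 of 10 genes of excitatory neurons (-0.32). The summed level of the 20 further endothelial genes was 302 to 1630 CPM in the home cage and 193 to 248 CPM after CFC, that of the 12 astrocyte genes 512 to 712 CPM and 397 to 509 CPM, and that of the 12 oligodendrocyte genes 1050 to 1550 CPM and 847 to 1120 CPM. The microglial genes summed to 78.0 to 110 CPM and 62.5 to 68.0 CPM. The endothelial, astrocyte and microglial sums did not overlap between the groups, and the oligodendrocyte sums did. Genes of the interneurons themselves were level, with medians of 0.05 for 8 genes of GABAergic cells and 0.01 for 8 SST markers. The part that the amount of vessel material carried into each library plays in the result was not tested, and in bulk RNA fewer vessel cells and less RNA per vessel cell cannot be told apart.

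The response of SST mice to CFC differed from their response to PTZ for 5 of the 8 members tested in both batches. The differences, CFC response minus PTZ response, were -4.81 ± 0.75 for Acta2 and -3.10 ± 0.46 for Col4a2 (adjusted p = 0.0402 each), and -3.88 ± 0.69 for Podxl, -3.55 ± 0.64 for Pdgfrb and -3.04 ± 0.54 for Vim (adjusted p = 0.0433 each, edgeR, log2 scale with SE). Flt1 (-2.91 ± 0.75), Col4a1 (-2.98 ± 0.81) and Myl9 (-2.85 ± 0.87) had the same sign and did not pass. Of all 11428 genes tested 10 were called, 0.0875%, so 5 of the 10 genes called were vessel members. With each of the 13 libraries left out in turn, 0 to 7 members stayed past the threshold: 7 of 59 genes called without home cage replicate 1, 2 without SST saline replicate 3, 1 without CFC replicate 1 or home cage replicate 3, and 0 without any of the other 9. The batches differ in control treatment as well as in the test, saline injection against the home cage. In batch 2 the Acta2 value rests on 2 to 15 reads per SST library.

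In the SST libraries labelled Nr4a1 cKO, replicate 1 was far above the other 2 libraries in every member. Acta2 was at 89.7, 1.54 and 1.34 CPM, Flt1 at 326, 11 and 9.99 CPM and Col4a1 at 138, 6.42 and 5.52 CPM in replicates 1 to 3. The first of these libraries was above, and both others were below, every SST home cage library for Acta2, Flt1 and Col4a1. Pdgfrb was at 44.6, 2.46 and 2.56 CPM, Myl9 at 76.4, 2.42 and 3.41 CPM and Tagln at 1.98, 0.375 and 0.0812 CPM. These mural genes showed the same split within the group. Cldn5 was at 132, 4.13 and 4.63 CPM, Podxl at 124, 5.50 and 5.2 CPM, Col4a2 at 97.3, 8.88 and 8.73 CPM and Vim at 93.4, 6.33 and 4.22 CPM. With all libraries, log2 fold changes against the SST home cage ran from -0.97 ± 1.43 for Acta2 to 0.46 ± 1.32 for Flt1, and edgeR called 0 members (0 at an unadjusted p under 0.05, 0 with DESeq2), against 8.1% of all genes. Of all 15453 genes 3356 were at an unadjusted p under 0.05.

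Without replicate 1, where 8.16% of all genes were called, all 10 members were negative and 7 were called lower: Acta2 (log2 -5.30, adjusted p = 0.00154), Myl9 (-3.57, 0.00356), Vim (-3.25, 0.00545), Pdgfrb (-2.84, 0.00756), Col4a2 (-1.66, 0.0225), Flt1 (-2.92, 0.0245) and Cldn5 (-3.15, 0.0436). Podxl (-2.55, 0.0515), Col4a1 (-2.67, 0.0727) and Tagln (-2.31, 0.430) did not pass. Leaving out replicate 1 thus reversed the sign of Cldn5, Flt1, Podxl, Col4a1 and Col4a2. Cldn5 (-0.22) and Col4a1 (-0.11) also turned without SST home cage replicate 1. Pdgfrb and Myl9 turned positive when replicate 2 or 3 of the group labelled Nr4a1 cKO was left out. Batch and genotype coincide in this comparison and cannot be told apart. Other cell types also had negative values in the comparison with all libraries: 11 of 11 microglial genes (median -1.11, 2 called lower), 12 of 12 astrocyte genes (-0.73, 1 called), 11 of 12 oligodendrocyte genes (-0.78, 4 called) and 10 of 10 genes of excitatory neurons (-0.53, 2 called). The 8 SST markers had a median of 0.02, with 4 negative, and Sst itself was called lower (log2 -0.89 ± 0.07, adjusted p = 0.000307, edgeR). The part of any of these lists in the members' values was not tested. Replicate 1 also stood apart in the 10 fibroblast and meningeal genes, which summed to 71.5 CPM against 17.2 and 17.5 CPM in replicates 2 and 3, and in the 5 blood genes, at 121 CPM against 31.7 and 23.8 CPM. It was closer to the others elsewhere: its 12 astrocyte genes summed to 441 CPM against 380 and 374 CPM, its 12 microglial genes to 62.6 CPM against 46.7 and 51.4 CPM, and its 8 SST markers to 6970 CPM against 7340 and 7690 CPM. Its 20 further endothelial genes summed to 3150 CPM against 162 and 195 CPM, and its 18 further mural genes to 584 CPM against 50.0 and 40.2 CPM.

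PTZ blocks GABA receptors and provokes seizures. In PV mice, both collagen IV chains separated the PTZ from the saline libraries. Col4a2 was at 13.0, 12.2 and 11.8 CPM in the saline libraries of batch 1 and at 28.9, 61.8, 61.2 and 38.1 CPM in the PTZ libraries. Col4a1 was at 5.6, 7.44 and 10.5 CPM and at 19.4, 34.3, 28.8 and 20.9 CPM. For both chains every PTZ library was above every saline library, at log2 fold changes of 1.87 ± 0.30 (adjusted p = 0.131) and 1.63 ± 0.29 (adjusted p = 0.159), which edgeR did not call.

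Acta2 also kept apart in PV mice, at 0.742, 0.270 and 1.08 CPM after saline and at 6.62, 4.88, 2.53 and 1.63 CPM after PTZ (log2 2.42 ± 0.62, adjusted p = 0.267). These are low levels, 5 to 18 reads per saline library. The 3 of 10 members that were higher without overlap compare with 9.73% of all genes. Pdgfrb was at 10.4, 2.43 and 5.05 CPM after saline and at 8.15, 17.9, 10.1 and 8.46 CPM after PTZ. Flt1 was at 17.6, 5.28 and 4.27 CPM and at 12.0, 38.5, 12.3 and 9.50 CPM. In both genes saline replicate 1 lay among the PTZ libraries. Podxl was the member with a negative value, -0.59 ± 0.60, and for it too saline replicate 1, at 10.2 CPM, was the highest of the 7 libraries.

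None of the members was called by edgeR in this comparison, where 0.0294% of all genes were called. An unadjusted p under 0.05 was found for 5 of 10 members and for 1875 of all 13598 genes. DESeq2, which called more genes in all than edgeR (numbers below), called 3 members, Acta2, Col4a1 and Col4a2. EdgeR without PTZ replicate 1 called Col4a2 (log2 2.09, adjusted p = 0.0256), among 7 of 13464 genes, 0.052%. Marker lists of other cells had mostly positive log2 fold changes as well, although edgeR called none of their genes (1 to 6 per list at an unadjusted p under 0.05). Positive values were found for 12 of 12 microglial genes (median log2 1.69), 10 of 11 basement membrane genes (0.93), 18 of 19 further endothelial genes (0.89), 12 of 12 oligodendrocyte genes (0.69) and 11 of 12 astrocyte genes (0.47), and for 0 of 8 genes of GABAergic cells (-0.49). The summed levels of the astrocyte and oligodendrocyte lists overlapped between the groups, at 1220 to 5250 and 793 to 2290 CPM after saline and at 2370 to 4110 and 663 to 3660 CPM after PTZ, with the highest astrocyte sum in saline replicate 1. The summed levels of those 8 GABAergic genes were 5510 to 8410 CPM after saline and 2740 to 6370 CPM after PTZ, and the part of such a shift in the collagen values was not tested. Among the PTZ libraries replicate 2 was the lowest in GABAergic genes and the highest in Flt1, Vim, Pdgfrb, Cldn5 and Podxl. It was also the highest in Col4a1 (34.3 CPM against at most 28.8 CPM) and, narrowly, in Col4a2 (61.8 against 61.2 CPM). Acta2, Myl9 and Tagln were highest in replicate 1.

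**Figure D3:**
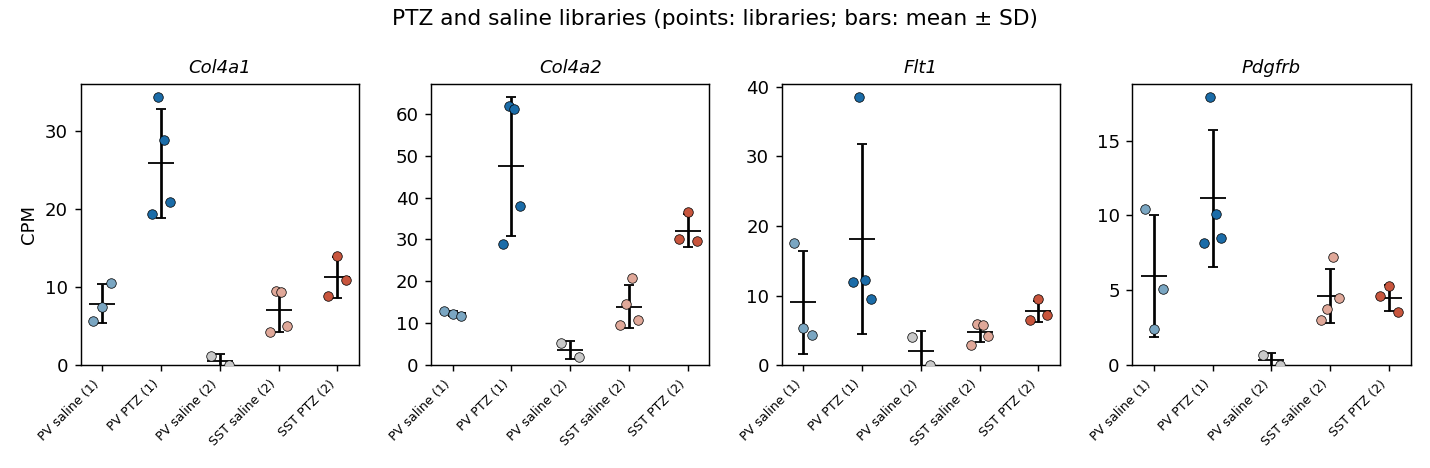
CPM of Col4a1, Col4a2, Flt1 and Pdgfrb in the saline and PTZ libraries of batches 1 and 2, with points for libraries and bars for mean ± SD. Col4a2 separated PTZ from saline in both cell types, at 28.9 to 61.8 CPM against 11.8 to 13.0 CPM in PV and 29.6 to 36.6 CPM against 9.46 to 20.9 CPM in SST.

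In SST mice Col4a2 had the largest fold change of the members tested after PTZ. It was at 9.46, 14.5, 20.9 and 10.7 CPM after saline and at 30.1, 36.6 and 29.6 CPM after PTZ, so the groups did not overlap (log2 1.24 ± 0.29, adjusted p = 0.325). Col4a1 overlapped, at 4.26, 9.47, 9.30 and 5.01 CPM against 8.84, 14 and 10.9 CPM. Flt1 was at 2.88, 5.94, 5.74 and 4.25 CPM after saline and at 6.53, 9.44 and 7.17 CPM after PTZ, and Podxl at 1.94, 1.79, 2.18 and 1.47 CPM and at 2.65, 3.22 and 2.34 CPM. These endothelial genes kept apart by a narrow margin, so that 3 of 7 members tested were higher without overlap, against 3.59% of all genes. Pdgfrb, at 3.01, 3.77, 7.19 and 4.46 CPM and at 4.62, 5.28 and 3.53 CPM, had the PTZ libraries inside the saline range. Acta2 (0.125 to 0.654 CPM after saline, 0.272 to 0.833 CPM after PTZ) and Vim (1.53 to 2.38 and 2.28 to 3.5 CPM) overlapped, and Myl9, at 0.109 to 0.313 and 0.0563 to 0.444 CPM, did not pass the filter on low counts.

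EdgeR called 0 of the 7 members in SST mice after PTZ (1 at an unadjusted p under 0.05, 1 with DESeq2, which was Col4a2), against 0.144% of all genes. Of all 11784 genes 511 were at an unadjusted p under 0.05. The median log2 fold change was 0.68 over the 7 members. It was -0.06 for 10 microglial, 0.18 for 12 astrocyte, -0.02 for 12 oligodendrocyte and 0.08 for 11 further endothelial genes. For 9 basement membrane genes it was 0.13 (6 positive, 0 at an unadjusted p under 0.05). Other lists were more positive, at 0.31 for 11 further mural genes (9 positive) and 0.56 for 7 fibroblast and meningeal genes (6 positive, 3 at an unadjusted p under 0.05), and the 1 macrophage gene tested was at 0.98. The 9 genes of excitatory neurons were at 0.21 (8 positive, 4 at an unadjusted p under 0.05). EdgeR called no gene of these lists, and their part in the members' values was not tested. The difference between the PTZ responses of SST and PV mice was tested for 8 members and edgeR called none (0 at an unadjusted p under 0.05, 0 with DESeq2), with 0% of all genes called, 602 of 11743 genes at an unadjusted p under 0.05 and 1 gene called by DESeq2. For Col4a2 this difference was -0.67 ± 0.43 and for Acta2 -1.79 ± 0.89.

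Within batch 2 the saline libraries of the 2 cell types could be compared. Pdgfrb was at 0.649 and 0 CPM in the PV libraries and at 3.01 to 7.19 CPM in the SST libraries, Col4a1 at 1.14 and 0 CPM against 4.26 to 9.47 CPM, and Col4a2 at 5.19 and 2.03 CPM against 9.46 to 20.9 CPM. These 3 members were higher in SST (log2 3.69 ± 0.75, 3.51 ± 0.72 and 1.93 ± 0.42, adjusted p = 0.00146, 0.0016 and 0.0024, edgeR). The sizes rest on 2 PV libraries, 1 of them without a read of Pdgfrb or Col4a1: with 1 library left out the calls held and the log2 values ran from 2.91 to 9.13 for Pdgfrb, 2.72 to 9.73 for Col4a1 and 1.52 to 2.67 for Col4a2. They are 3 of 7 members tested, where 53.1% of all genes were called, so the members' share was no higher than that of genes at large. With Podxl, 4 of 7 were higher in every SST library, against 30.2% of all genes. Flt1 was at 4.06 and 0 CPM in PV and at 2.88 to 5.94 CPM in SST, and overlapped. Without PV saline replicate 1 the log2 value of Flt1 was 9.16, a size set by the lone PV library at 0. The PV libraries were the shallowest of the series, and the library with no read of Pdgfrb, Flt1, Col4a1 or Myl9 held 4933110 counts, for which 3 counts allow up to 0.608 CPM.

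Other genes of the vessel wall were called in this comparison in both directions, at a share no higher than the 53.1% of all genes. Of 9 basement membrane genes 4 were called higher in SST, among them the laminin chains Lama4, at 27.7 to 36.8 CPM against 0.649 and 1.62 CPM in PV (log2 4.93 ± 0.38, adjusted p = 1.35e-06), and Lama5, at 3.44 to 7.34 CPM against no read in either PV library. Of 11 further endothelial genes 5 were called higher, among them Tek, the angiopoietin receptor, at 1.19 to 1.63 CPM against no read in either PV library, and the phospholipid transfer protein Pltp, at 2.13 to 3.92 CPM against 0 and 0.487 CPM. Of 11 further mural genes 3 were called higher, Mcam among them at 1 to 1.42 CPM against 0 and 0.162 CPM, and 2 lower, the tropomyosin Tpm2 (-3.45 ± 0.20, adjusted p = 1.99e-07) and the myosin kinase Mylk (-2.61 ± 0.44, adjusted p = 0.000409). The fibroblast gene Col3a1, at 0.654 to 1.69 CPM against 0 and 0.162 CPM, and the macrophage receptor Mrc1, at 1.38 to 3.78 CPM against 0 and 0.325 CPM, were also called higher in SST. Levels of these genes in the PV libraries rest on a few reads or none.

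Fear conditioning of PV mice gave no call among the members. Acta2 was at 40.1, 63.7 and 55.3 CPM in the home cage and at 14.5, 39.0 and 61.9 CPM after CFC, and Myl9 at 31.3, 28.9 and 24.0 CPM against 9.89, 27.0 and 36.9 CPM. CFC replicate 1 was low in both and replicate 3 was as high as the home cage, so the groups overlapped. Flt1 (13.2, 11 and 17.7 CPM against 6.98, 9.93 and 18.4 CPM), Podxl (11.5, 11.4 and 15.2 CPM against 5.15, 8.28 and 19.0 CPM) and Vim (32.1, 19.5 and 22.7 CPM against 9.89, 17.6 and 35.0 CPM) also had their lowest CFC level in replicate 1 and their highest in replicate 3. Cldn5 was at 14.8, 16.6 and 25.2 CPM against 4.52, 6.71 and 14.8 CPM, with the lowest home cage and the highest CFC library both rounding to 14.8 CPM, and was the 1 member of 10 lower in this way, against 9.23% of all genes. Pdgfrb was at 5.65, 1.5 and 3.47 CPM against 2.28, 3.99 and 4.63 CPM, and Tagln at 1.33, 0.85 and 1.09 CPM against 0.0895, 0.722 and 0.866 CPM.

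In this comparison the median log2 fold change was -0.34 over the members and 0.02 over all genes, 9 of 10 members were negative, and edgeR called 0 (0 at an unadjusted p under 0.05, 0 with DESeq2). EdgeR called 0% of all 15150 genes, with 2834 at an unadjusted p under 0.05 and 617 called by DESeq2. The CFC response of SST mice was more negative than that of PV mice for 10 of 10 members, with differences from -1.39 ± 1.08 for Cldn5 to -3.53 ± 1.27 for Acta2. No difference passed (7 at an unadjusted p under 0.05, 0 with DESeq2), the smallest adjusted p being 0.21 for Pdgfrb (-3.49 ± 0.77), and 0% of all 16081 genes passed, with 2452 at an unadjusted p under 0.05 and 220 called by DESeq2. The Acta2 call in SST mice alone is therefore not shown to differ from PV mice.

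**Figure D4:**
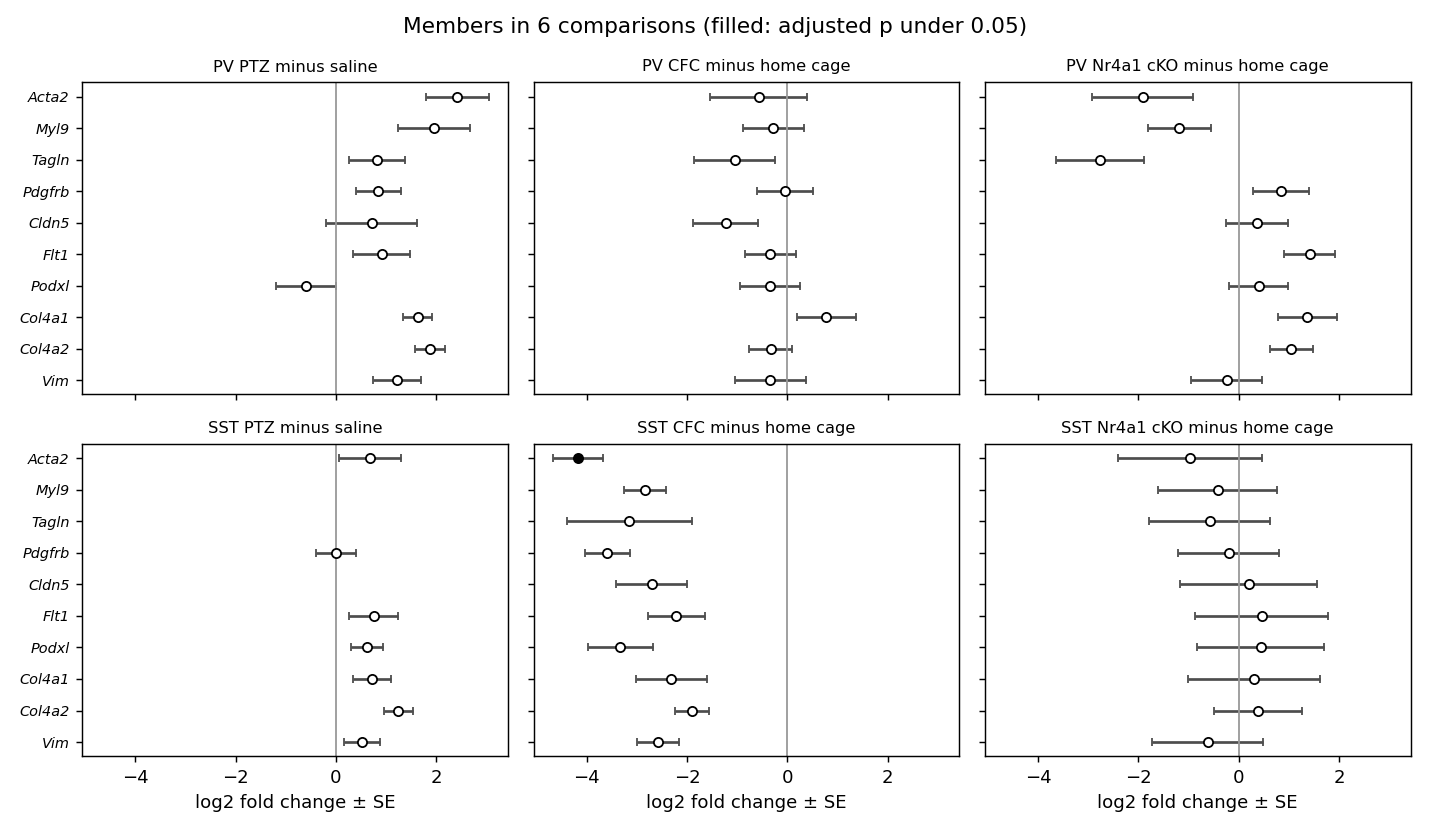
Log2 fold change with its SE for each member in 6 comparisons, PV above and SST below, with filled points where the adjusted p was under 0.05. The filled point is Acta2 in SST CFC minus home cage at -4.17, and the widest bars are those of SST Nr4a1 cKO minus home cage, where 1 library of 3 was far above the others.

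In the PV libraries labelled Nr4a1 cKO the contractile members had negative and the endothelial members positive fold changes, none of them called. Acta2 was at 1.83, 4.76 and 39.6 CPM, below all PV home cage libraries (40.1 to 63.7 CPM), and Tagln was at 0.147, 0.127 and 0.236 CPM, below their 0.85 to 1.33 CPM. These were 2 of 10 members lower without overlap, against 6.02% of all genes, with replicate 3 only just below the home cage in Acta2. Myl9 was at 9.75, 2.89 and 27.7 CPM and overlapped through replicate 3. Flt1, by contrast, was at 44.0, 11.3 and 66.7 CPM, so replicates 1 and 3 were above and replicate 2 was within the home cage range of 11 to 17.7 CPM. Col4a1 (14.8, 4.46 and 14.5 CPM against 1.90 to 6.29 CPM) and Col4a2 (12.2, 4.80 and 18.1 CPM against 4.52 to 6.47 CPM) were likewise lowest in replicate 2, as was Pdgfrb at 7.18, 2.46 and 11.1 CPM.

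Cldn5 (20.0, 5.90 and 53.4 CPM), Podxl (15.6, 4.33 and 34.8 CPM) and Vim (12.8, 4.29 and 51.2 CPM) spread to both sides of the home cage. Log2 fold changes were -2.76 ± 0.88 for Tagln, -1.91 ± 1.01 for Acta2 and -1.18 ± 0.62 for Myl9, and 1.42 ± 0.51 for Flt1, 1.37 ± 0.59 for Col4a1 and 1.05 ± 0.43 for Col4a2. EdgeR called 0 members (4 at an unadjusted p under 0.05, 0 with DESeq2), with adjusted p of 0.176 for Tagln and 0.196 for Flt1, against 0.139% of all genes. Of all 15150 genes 2699 were at an unadjusted p under 0.05. Cldn5 (0.36 ± 0.62) and Podxl (0.40 ± 0.59) were near 0. Without replicate 3 they turned to -0.67 and -0.47, and Acta2 was called at -4.13 (adjusted p = 0.03), where 0.102% of all genes were called. Of 19 further endothelial genes 18 were positive (median 1.2), of 17 further mural genes 8 were (median -0.05), and 12 of 12 oligodendrocyte genes were positive (median 0.97). The home cage libraries are the same as in the CFC comparison of PV mice.

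The balance between contractile and endothelial reads was described for each library as Acta2 plus Myl9 over Acta2, Myl9, Flt1 and Podxl together, 4 genes measured in all batches. The sum is not scaled for gene length, so it serves only to set libraries side by side. It was 75.2% ± 4.96 (SD, n = 3) in the PV home cage and 72.6% ± 5.8 (n = 3) in PV CFC, and 29.7% ± 12.1 (n = 3) in the PV libraries labelled Nr4a1 cKO. The range of the last group, 16.3 to 39.9%, was clear of the 66.8 to 80.5% of the other 2. In SST it was 48.8% ± 9.96 in the home cage, 29.3% ± 9.84 after CFC and 23.3% ± 3.82 in the libraries labelled Nr4a1 cKO (n = 3 each). The SST home cage range of 37.6 to 56.6% was above the 18.0 to 35.7% of CFC. In the SST group labelled Nr4a1 cKO the high replicate 1 had 26.9% and the low replicates 19.3 and 23.8%, while the sum over all 10 members ran from 45.7 to 1120 CPM there.

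In batches 1 and 2 the same share was below 50% in every library. It was 9.83% ± 8.47 in PV saline (n = 3) and 23.0% ± 13.8 in PV PTZ (n = 4) of batch 1, and 11.5% ± 12.0 in PV saline (n = 2), 8.37% ± 0.563 in SST saline (n = 4) and 6.97% ± 2.42 in SST PTZ (n = 3) of batch 2. Acta2 did not exceed 6.62 CPM in batches 1 and 2, while Pdgfrb of the pericyte was at 2.43 to 17.9 CPM in batch 1. Low Acta2 was not particular to these batches: it was at 1.92 to 3.98 CPM in SST CFC of batch 4 and at 1.54 and 1.34 CPM in 2 libraries of batch 5, and the mean share of the SST libraries labelled Nr4a1 cKO was close to that of PV PTZ.

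**Figure D5:**
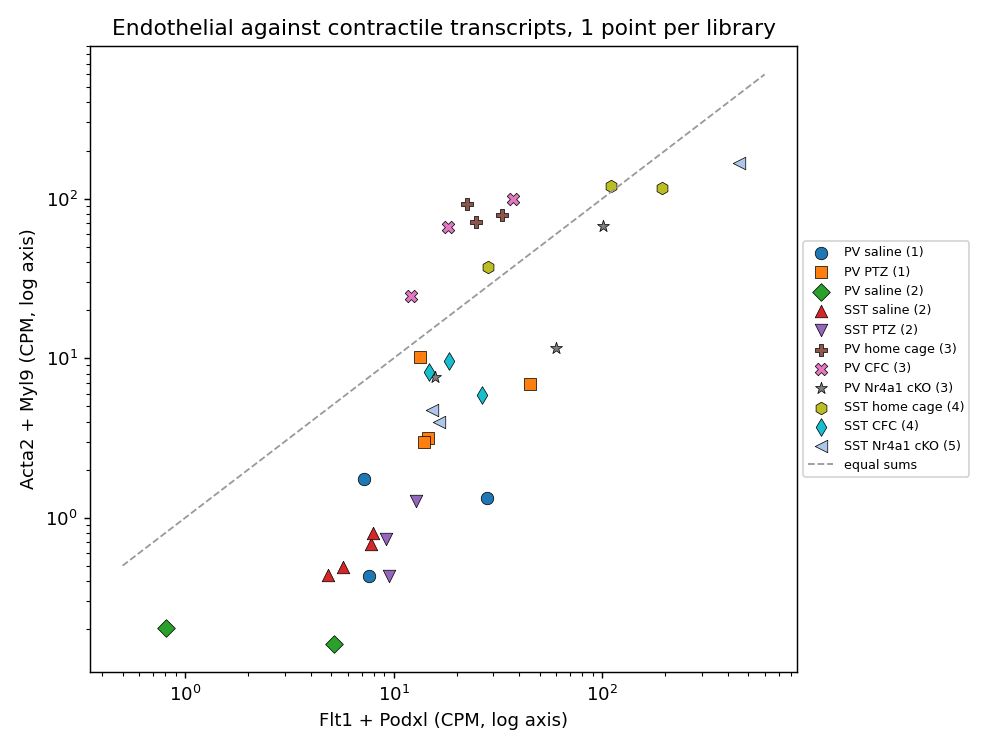
Summed CPM of Acta2 and Myl9 against summed CPM of Flt1 and Podxl on log axes, 1 point per library, with a dashed line where the sums are equal. The PV home cage and CFC libraries of batch 3 lie above the line, at 66.8 to 80.5% contractile, and all libraries of batches 1 and 2 lie below it.

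The genes whose pattern over the 34 libraries was most like the members were sought among 10144 genes with a mean of at least 5 CPM, by Pearson correlation of log2(CPM + 1) centred within each batch. The correlation is a description: libraries share batches and depth, and a few libraries carry most of the range. With the mean of Acta2, Myl9 and Pdgfrb the closest were Myh11, the smooth muscle myosin heavy chain (0.914), Vwf, the von Willebrand factor of endothelium (0.896), Ahnak (0.887), the actin-binding caldesmon gene Cald1 (0.886) and Tns1 (0.877). With the mean of Flt1 and Podxl they were Pltp (0.968), the glucose transporter Slc2a1 (0.946), Ahnak (0.943), Adgrf5 (0.936) and the thyroid hormone transporter Slco1c1 (0.934). Among the members, Vim was closer to the mural mean (0.908) than to the endothelial mean (0.832), and Col4a1 and Col4a2 closer to the endothelial mean (0.816 and 0.820) than to the mural mean (0.729 and 0.699). Without replicate 1 of the SST libraries labelled Nr4a1 cKO, Acta2 correlated with the endothelial mean at 0.495 in place of 0.649, and the same 5 genes stood closest to each mean.

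Near relatives of the members were checked, since reads can be shared between similar genes. The skeletal actin Acta1 was at 15.9 to 20.4 CPM in the SST home cage and at 17.3 to 21.0 CPM after CFC, and the cytoplasmic actin Actb at 341 to 386 and 357 to 423 CPM, so neither followed Acta2. The smooth muscle actin Actg2, the closest relative of Acta2, stayed at or below 0.607 CPM in both groups. Myl12b, a light chain of non-muscle myosin, was at 717 to 841 and 763 to 812 CPM, and the neuronal Tagln3 at 577 to 646 and 575 to 629 CPM. Kdr, the signalling receptor for vascular endothelial growth factor beside Flt1, was at 7.93 to 26 CPM in the home cage and at 0.968 to 7.49 CPM after CFC, without overlap.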

How the data were processed

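Ribosome-bound mRNA of 34 libraries in 11 groups was read from 5 tables, 1 per batch. For batch 1 the authors deposited expected counts, which need not be whole (11.3% were not) and were rounded here; for batches 2 to 5 they deposited raw read counts per gene. The tables hold no normalization per the file headers. They list 24371 genes in batch 1, 11808 in batch 2 and 53465 in each of batches 3 to 5. In batch 2 no listed gene had fewer than 3 counts over its libraries. The library totals behind CPM therefore span different sets of genes between batches. HTSeq 0.11.0, STAR 2.5.2a, cutadapt 1.18 and DESeq2 are named per the submitters' processing notes, as are the builds mm10 and GRCm39, without a role. Whether counting used strand is not stated there.

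Groups and replicate numbers were taken from the titles, and 0 columns of values were left unused. None of the 37 replicate pairs held identical counts, and chi-square over its degrees of freedom was at least 6.18 in each pair. CPM is the count per 1000000 of the library's table total. The main test was edgeR's two-sided quasi-likelihood F test (version 4.0.16, run in R 4.3.3) with robust dispersion, TMM scaling, filterByExpr and Benjamini-Hochberg adjustment over all genes tested at 0.05, fitted per batch. Batches 4 and 5 were joined for the SST libraries labelled Nr4a1 cKO, and differences of responses were contrasts of contrasts. Tested on simulated data with large changes and the same low spread for all genes, the procedure recovered most of the changed genes it was given. Several groups here spread far more, so that run does not measure the power of the test on these data. Alternatives were RLE scaling, no filter, DESeq2 1.42.0, a fit of only the groups compared, a replicate block, each replicate left out, and TMM-scaled CPM.

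The members and lists were chosen with earlier results of these data known. All 10 members were named; of other lists up to 4 called genes with the largest change per comparison, near relatives of the members, and the 5 genes outside the set most like each reference were eligible. Kdr and the libraries singled out were picked after their values were seen.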

Additional observations from a re-analysis of the deposited data

Results flagged for a closer look

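In the PV PTZ group replicate 2 lay far from the 3 other libraries in 2 members: Flt1 was at 38.5 CPM, against 9.50 to 12.3 CPM, and Vim at 17.2 CPM, against 5.93 to 6.91 CPM. The gap to the nearest library was 0.903 and 0.913 of the group's range. Of 18 sets of a member in a group of 4 libraries, 2 stood out, both through the same library. Chance flags about 1 in 20 groups in this way.

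The response of SST mice to CFC differed from that to PTZ in 5 members by the test of the difference itself (edgeR): Acta2 at -4.81 and Col4a2 at -3.10 (adjusted p = 0.0402 each), and Pdgfrb at -3.55, Podxl at -3.88 and Vim at -3.04 (adjusted p = 0.0433 each), on the log2 scale. The PTZ response was close to 0 for Pdgfrb and positive for Acta2 (0.68 ± 0.62), Col4a2 (1.24 ± 0.29), Podxl (0.61 ± 0.32) and Vim (0.51 ± 0.36), none of them called by edgeR, while DESeq2 called Col4a2. The calls of the difference were fragile: with a replicate left out the number of members called ran from 0 to 7 and was most often 0.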

How the results depend on the processing

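Directions held for most members and settings, while many counts of calls moved by over 1.5 times. The numbers of members called and of all genes called, in that order, were as follows. For PV PTZ they were 0 and 4, against 3 and 215 with DESeq2, 2 genes with the replicate block, and 0 to 1 and 0 to 14 with a replicate left out. For SST PTZ they were 0 and 17, against 1 and 38 with DESeq2, 38 genes with only the groups compared and 8 genes with the replicate block. For PV CFC they were 0 and 0, against 1 and 1032 without the filter, 617 genes with DESeq2, 2 genes with only the groups compared or the replicate block, and 0 to 1481 genes with a replicate left out. For the PV libraries labelled Nr4a1 cKO they were 0 and 21, against 4 and 1072 without the filter, 650 genes with DESeq2, 10 genes with only the groups compared, and 0 to 1 and 7 to 1224 with a replicate left out. For SST CFC they were 1 and 6, against 3 and 11 without the filter, 6 and 101 with DESeq2, 2 genes with the replicate block, and 0 to 7 and 1 to 37 with a replicate left out. For the SST libraries labelled Nr4a1 cKO they were 0 and 1252, against 2126 genes with DESeq2, and 0 to 7 and 412 to 1292 with a replicate left out.

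For the difference of PTZ responses they were 0 and 0, against 1 gene with DESeq2 or the replicate block and 0 to 1 gene with a replicate left out. For the difference of CFC responses they were 0 and 0, against 8 and 708 without the filter, 220 genes with DESeq2, and 0 to 1 and 0 to 881 with a replicate left out. For the difference of SST responses they were 5 and 10, against 62 genes with DESeq2, 0 and 0 with the replicate block, and 0 to 7 and 0 to 59 with a replicate left out. The SST against PV saline comparison kept the calls of Pdgfrb, Col4a1 and Col4a2 throughout. The cause of these shifts was not tested. Replicate numbers did not pair the libraries (correlations of same-numbered libraries -0.312 to 0.253), so a call lost under the replicate block says nothing of the effect's size.

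Signs turned for uncalled values. The replicate block gave -0.17 for Cldn5 in PV PTZ, 0.06 for Pdgfrb in SST PTZ, 0.13 for Pdgfrb in PV CFC, 0.14 for Flt1 in the difference of PTZ responses, and, in the SST libraries labelled Nr4a1 cKO, -0.82, -1.02, -0.86, -0.38 and -0.42 for Cldn5, Flt1, Podxl, Col4a1 and Col4a2. Pdgfrb in SST PTZ, at 0 in the main result, was 0.00 with RLE scaling or DESeq2 and 0.01 with only the groups compared. With a replicate left out, ranges that crossed 0 were -0.99 to 0.34 (Podxl, PV PTZ), -0.17 to 0.31 (Pdgfrb, SST PTZ), -1.07 to 0.23 (Vim, SST against PV saline), -0.41 to 0.44 and -0.66 to 0.08 (Pdgfrb and Myl9, PV CFC), -1.65 to 0.26, -0.67 to 0.84 and -0.47 to 0.87 (Vim, Cldn5 and Podxl, PV libraries labelled Nr4a1 cKO) and -1.09 to 0.44 (Flt1, difference of PTZ responses). In the SST libraries labelled Nr4a1 cKO they were -2.84 to 0.31 (Pdgfrb), -3.57 to 0.12 (Myl9), -3.15 to 1.29 (Cldn5), -2.92 to 1.09 (Flt1), -2.55 to 1.2 (Podxl), -2.67 to 1.23 (Col4a1) and -1.66 to 0.85 (Col4a2). Few reads were behind Tagln in all batches and behind Acta2 and Myl9 in batches 1 and 2, which limits the precision of these values. The depth of most of these libraries was like that of batch 4.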

Other observations

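The count ratio of Pdgfrb to Acta2 within a library differed widely between and within batches. It was 9.22 ± 4.67 in PV saline of batch 1 (SD, n = 3) and 14.2 ± 6.55 in SST saline of batch 2 (n = 4), but 0.0758 ± 0.0598 in the PV home cage of batch 3 (n = 3) and 0.353 ± 0.109 in the SST home cage of batch 4 (n = 3). The saline ratios rest on few Acta2 reads, 5 to 18 per library in PV of batch 1 and 2 to 9 in SST. In PV saline of batch 2 the ratio was 4.0 and 0, from 1 Acta2 read per library. After CFC the SST libraries had a ratio of 0.464 ± 0.0382 (n = 3), close to their home cage, although both genes had lower levels. The PV libraries labelled Nr4a1 cKO of batch 3 ranged from 0.28 to 3.92, reaching into the 1.23 to 5.18 of PV PTZ in batch 1, and the SST libraries labelled Nr4a1 cKO ranged from 0.497 to 1.91. The batches differ in treatment, table and kind of count, and these cannot be told apart.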
